A study of Mus musculus with 12 samples.

Results

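The cell division cycle and DNA replication genes of mouse gastrocnemius muscle were taken by gene symbol: the minichromosome maintenance genes (Mcm), cyclins A, B, D and E (Ccn), numbered cyclin-dependent kinases (Cdk), E2F factors, numbered Cdc genes, Aurora and Polo-like kinases (Aurk, Plk), centromere proteins (Cenp), Mki67 and Top2a. Of 28944 transcript clusters on the array, 96 carried 1 such symbol and no other, and they stood for 88 of 19938 genes. A transcript cluster is the set of probes that the array reads as 1 transcript. Another 3 transcript clusters paired a symbol of this kind with a second gene and were left out. Ccnb1, Cenpc and Cdk11 are not analysed here, since no transcript cluster carried exactly 1 of these symbols and no other. Longer forms of the symbols were not searched, so the array may still hold clusters of these genes.

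The muscle came from male germ-free mice, labelled Tsl;ICR[GF], aged 11 weeks, that had received feces by gavage for 1 week. In the RS group (n = 6) the feces came from sedentary donors, and in the RT group (n = 6) from donors trained on a treadmill, all donors being male ICR mice. All recipients were fed a high-fat diet, were no longer germ-free at sampling, and were fasted before the muscle was collected. Each array held the total RNA of 1 mouse. The methods have the recipients housed together on identical fecal samples, and do not give the number of donors or cages behind a group, so a fecal sample or cage cannot be told apart from the training of the donors. The comparison of RT with RS asks what the transfer of feces from trained donors changed in the recipients' muscle.

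In a dividing cell, cyclin D with Cdk4 or Cdk6 and then cyclin E with Cdk2 phosphorylate the retinoblastoma protein, which frees E2F factors to switch on the genes of DNA synthesis. Mcm2 to Mcm7 form the helicase that is loaded on replication origins, and cyclins A and B with Cdk1, the Aurora and Polo-like kinases and the centromere proteins carry the cell through mitosis. Nuclei within adult muscle fibers do not divide, and the dividing cells of the tissue are satellite cells and the cells between the fibers. Several kinases named Cdk serve transcription or differentiated cells and not the cycle.

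By limma (p under 0.05 and adjusted p under 0.1) RT exceeded RS in 11 of the 96 transcript clusters and fell short of it in 7, and 78 were not called. Cyclin D1 (Ccnd1) and its partner Cdk4, together with Cdk2, Cdk14, Cdk5, Cdk19, Plk2, Cdc16, Cdc27, Cenpl and 1 of 2 clusters of Cdk7, were higher. Cdk20, Cdk3, Cenps, E2f8, Mcm10, 1 of 2 clusters of Top2a and 1 of 4 clusters of Aurkc were lower. Mki67, Cdk1, every A and B cyclin measured and Mcm2 to Mcm7 were not called. The largest change in either direction was the 0.49 of Cdk2 on the log2 scale, a ratio of 1.40.

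These counts are to be read against the whole array, on which 24.9% of all transcript clusters were called, 11.9% higher and 13% lower. Of the cell cycle clusters 18.8% were called, 11.5% higher and 7.29% lower, so the share of higher calls lay next to that of the array. Their median change of -0.0008 compared with -0.0133 over all transcript clusters. The direction of calls on these arrays went with signal: above the median signal of the array 20.6% were higher and 10.7% lower, and below it 3.21% were higher and 15.3% lower. Among the cell cycle clusters 52 lay above that median, with 9 higher and 3 lower, and 44 lay below it, with 2 higher and 4 lower. When each array was centered on its own median, 19 cell cycle clusters were higher and 5 lower, which moved the share of higher calls from 61.1% to 79.2%. Over all transcript clusters that share moved alike, from 47.8% to 70.9%.

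**Figure D1:**
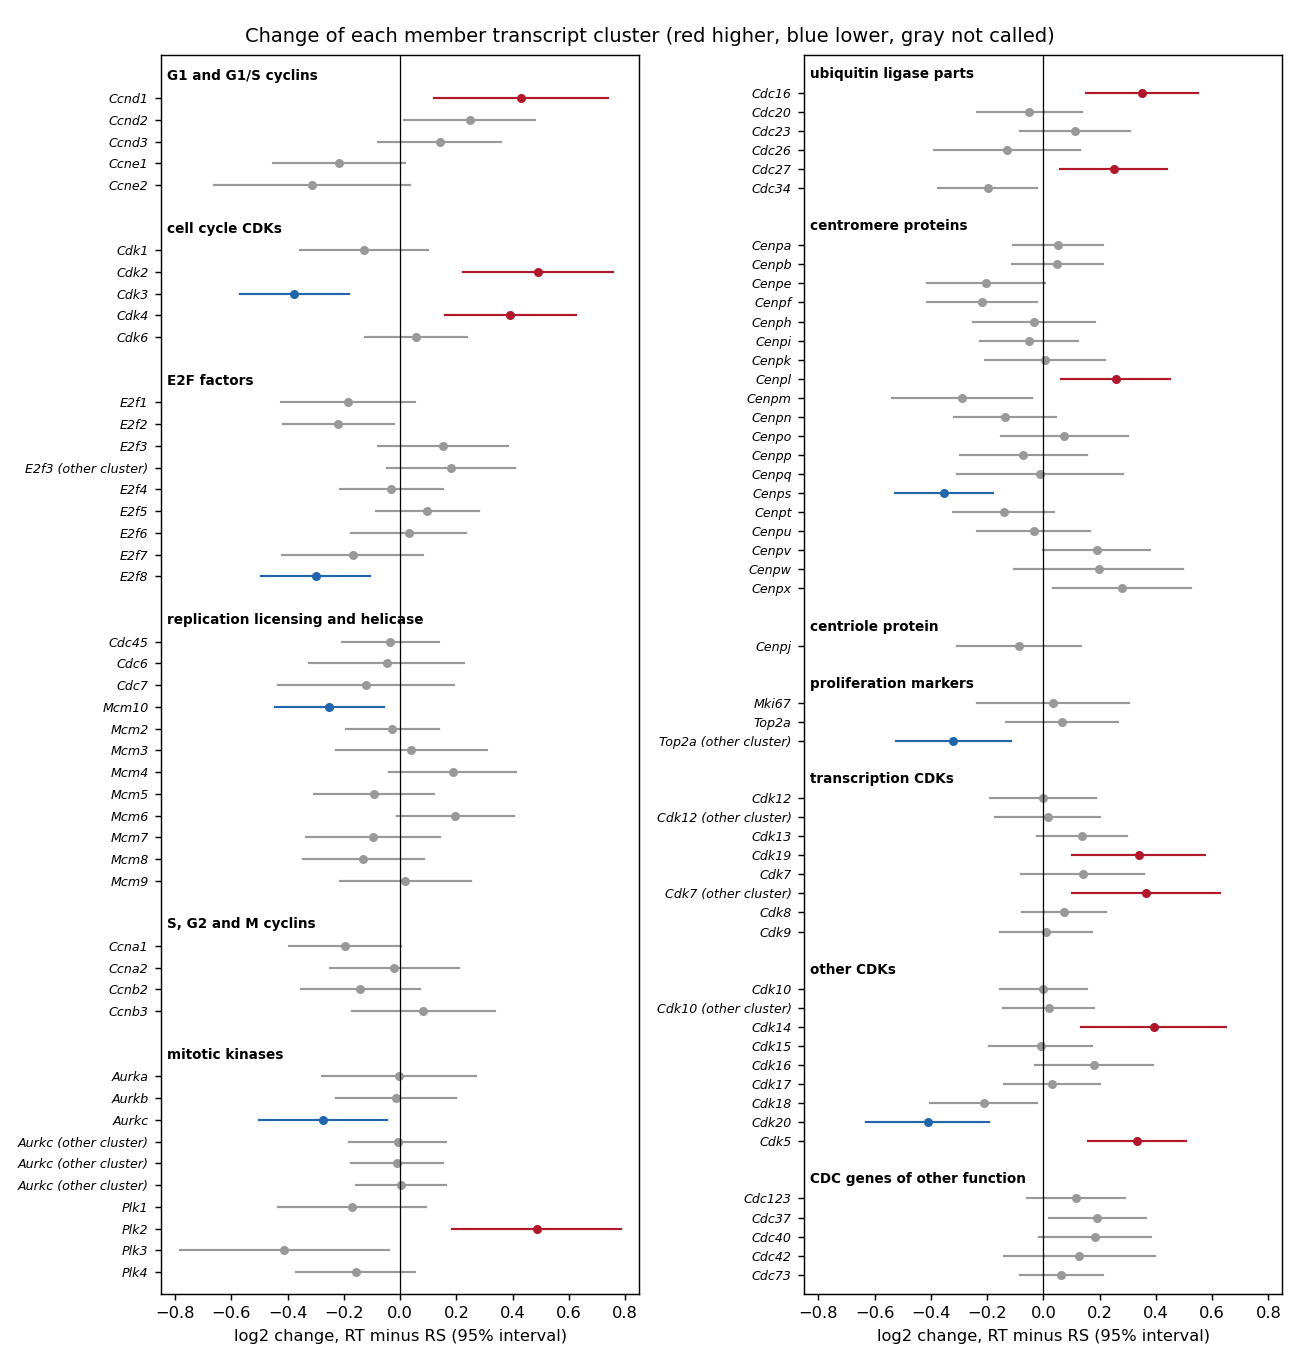
Log2 change of RT minus RS for each of the 96 transcript clusters, ordered by the role of the gene, with the 95% interval of the limma fit as a line. Red marks the 11 called higher, blue the 7 called lower and gray the 78 not called. A gene with several transcript clusters has its brightest first.

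Arrays RS-4 and RS-6 stood apart from the others: the SD of log2 signal over all transcript clusters was 1.97 and 1.99 there, against 2.06 to 2.15 on the other 10. Without those arrays 4 cell cycle clusters were higher and 4 lower, all 8 being calls of the full comparison, beside 5.7% higher and 6.19% lower over the array. With the SD of each array as a covariate, 1 was higher and 2 were lower, beside 2.53% and 3.07%, and of the 18 calls only Cdk14 and Cdk3 were kept. RS-4 and RS-6 are of 1 group, so this covariate overlaps in part with the comparison of RT with RS. The part of array spread in a lost call was not tested. The 12 muscle fiber markers, among them Acta1, Ckm and Myh4, lay at the top of the signal range, as the labelled tissue has them, and none was called. Markers of other cell types moved with the groups: all 12 fibroblast and matrix markers, 10 of 12 macrophage markers and 7 of 12 endothelial markers were higher in RT and none was lower, while satellite cell markers split into 2 higher and 2 lower of 10. Of 9 adipocyte markers 4 were higher and 1 lower, of 6 erythroid markers 1 was higher and 1 lower, and of 7 lymphocyte markers 2 were lower. In whole muscle, fewer cells of a type and less RNA per cell cannot be told apart, and the part of these cells in the changes below was not tested.

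The promoters are shown before the values, since the elements they carry differ between the genes of dividing cells and the other members. The E2F element is the site E2F factors bind, and the cell cycle homology region (CHR) and the CCAAT box are elements that late cell cycle promoters often carry. Promoters of 75 of the 88 genes were given in the RefSeq table (build GRCm38.p6), from 250 bases before to 50 bases after the start. The 4 stretches here are the 250 bases before the start, from 5′ to 3′, with matches to the 3 elements on either strand in capitals. Cdk2 and Cdk4, higher in RT, are set beside Cdk1 and Top2a, which stand for the genes of dividing cells. Cdk2 lies at chr10:128705052-128705301 (minus strand), Cdk4 at chr10:127063285-127063534 (plus strand), Cdk1 at chr10:69352913-69353162 (minus strand) and Top2a at chr11:99024190-99024439 (minus strand).
Cdk2: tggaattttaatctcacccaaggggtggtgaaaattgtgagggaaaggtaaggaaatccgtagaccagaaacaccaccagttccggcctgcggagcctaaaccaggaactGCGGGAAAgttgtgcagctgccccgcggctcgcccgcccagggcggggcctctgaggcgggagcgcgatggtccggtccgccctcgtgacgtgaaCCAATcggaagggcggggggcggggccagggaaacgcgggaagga
Cdk4: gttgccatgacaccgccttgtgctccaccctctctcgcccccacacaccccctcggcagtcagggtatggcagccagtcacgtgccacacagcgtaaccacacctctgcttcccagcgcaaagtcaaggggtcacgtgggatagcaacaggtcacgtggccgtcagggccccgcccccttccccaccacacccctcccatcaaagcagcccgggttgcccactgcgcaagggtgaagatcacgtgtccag
Cdk1: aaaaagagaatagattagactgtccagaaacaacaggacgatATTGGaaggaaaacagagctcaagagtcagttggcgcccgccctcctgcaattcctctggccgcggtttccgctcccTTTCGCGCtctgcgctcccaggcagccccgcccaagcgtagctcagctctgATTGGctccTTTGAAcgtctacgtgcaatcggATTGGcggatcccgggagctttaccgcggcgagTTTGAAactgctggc
Top2a: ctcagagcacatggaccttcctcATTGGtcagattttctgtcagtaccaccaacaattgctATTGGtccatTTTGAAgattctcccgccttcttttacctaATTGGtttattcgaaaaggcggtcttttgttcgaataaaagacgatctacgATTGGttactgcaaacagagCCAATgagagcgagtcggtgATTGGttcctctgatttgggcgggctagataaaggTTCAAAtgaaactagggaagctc

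Cdk2 held an E2F match 140 to 133 bases before the start and a CCAAT box 45 to 41 bases before it. Cdk1 held an E2F match, 2 CHR matches and 3 CCAAT boxes, and Top2a held 2 CHR matches and 6 CCAAT boxes. None of the 3 elements was in the stretch of Cdk4. The E2F search took TTTNNCGC with NN as CC, CG, GC or GG, the CHR search took TTTGAA or TTTAAA, and the letters CCAAT were taken as such, each on both strands with overlaps allowed.

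An E2F match stood in 15 of the 75 promoters (20%), against 2.6% of the 27025 genes of the table. The genes made mostly by dividing cells, called the proliferation core here, are a list of 34 that runs from Mki67, Cdk1, Ccna2 and the E cyclins to the replicative helicase and the kinetochore, and 33 of them are among the members. In 29 core promoters the E2F element was found in 31%, CHR in 62.1% and the CCAAT box in 86.2%. In the 46 other promoters the shares were 13%, 23.9% and 39.1%, and over the table CHR was found in 30.6% and the CCAAT box in 41.1%. Of 8 promoters of genes called higher 2 held the E2F element, as did 1 of 6 of genes called lower. A match of letters is a description and shows no binding.

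The cyclins D and E and their kinases act in G1 and at the entry to S phase, and of these genes Ccnd1, Cdk4 and Cdk2 were higher, Cdk3 was lower and the others were not called. Ccnd1, the cyclin that growth signals induce, was higher in RT by 0.43 on the log2 scale (SE 0.15, limma adjusted p = 0.0556). Its log2 signal ran from 5.35 to 6.07 in RS, with a median of 5.75, and from 5.69 to 6.67 in RT, with a median of 6.15. The groups overlapped through 1 RT mouse, and the other 5 RT mice lay above every RS mouse. The call ended with both RS-4 and RS-6 left out (change 0.31, adjusted p = 0.236) and under cyclic loess normalization. It also ended with the array SD as a covariate (change 0.24, adjusted p = 0.46) and when RS-4, RS-5, RS-6, RT-1 or RT-6 alone was left out (adjusted p from 0.103 to 0.123).

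Cdk4, the kinase that cyclin D activates, was higher in RT by 0.39 (SE 0.11, adjusted p = 0.0273). Its signal ran from 6.22 to 6.89 in RS, with a median of 6.76, and from 6.91 to 7.26 in RT, with a median of 7.01. The groups did not overlap, though their nearest values, 6.89 and 6.91, almost met. RS-6 was the lowest mouse, and without RS-4 and RS-6 the change was 0.26 (adjusted p = 0.102), and with the array SD as a covariate 0.19 (adjusted p = 0.324).

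Cdk2, the partner of the E and A cyclins, changed by 0.49 (SE 0.13, adjusted p = 0.0191). It ran from 4.10 to 4.83 in RS, with a median of 4.46, and from 4.66 to 5.09 in RT, with a median of 4.99. The highest RS mouse lay above 2 RT mice. Without RS-4 and RS-6 the change was 0.47 (adjusted p = 0.0524), and with the array SD as a covariate 0.44 (adjusted p = 0.147).

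Ccnd2 gave 0.25 (adjusted p = 0.131) and Ccnd3 0.14 (adjusted p = 0.364), neither called. Cdk6, the other kinase of cyclin D, gave 0.06 (95% interval -0.13 to 0.24). Cyclins E1 and E2, the partners of Cdk2, gave -0.22 (adjusted p = 0.185) and -0.31 (adjusted p = 0.196). In Ccne2 the RS mice ran from 4.14 to 5.01 and the RT mice from 3.88 to 4.94, so the groups lay over each other. It was called lower when RS-2 or RT-6 was left out (changes of -0.42 and -0.43), as Ccne1 (-0.28) was and, upward, Ccnd2 (0.31) when RS-3 was left out.

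Cdk3 fell by 0.38 (SE 0.09, adjusted p = 0.0147). It ran from 4.58 to 4.76 in RS and from 4.00 to 4.53 in RT, with no overlap. The gene table lists mouse Cdk3 as a transcribed pseudogene, so its signal stands for a transcript and not for a kinase. This call and that of Cdk14 were the only 2 of the 18 that held under all 26 alternative settings.

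**Figure D2:**
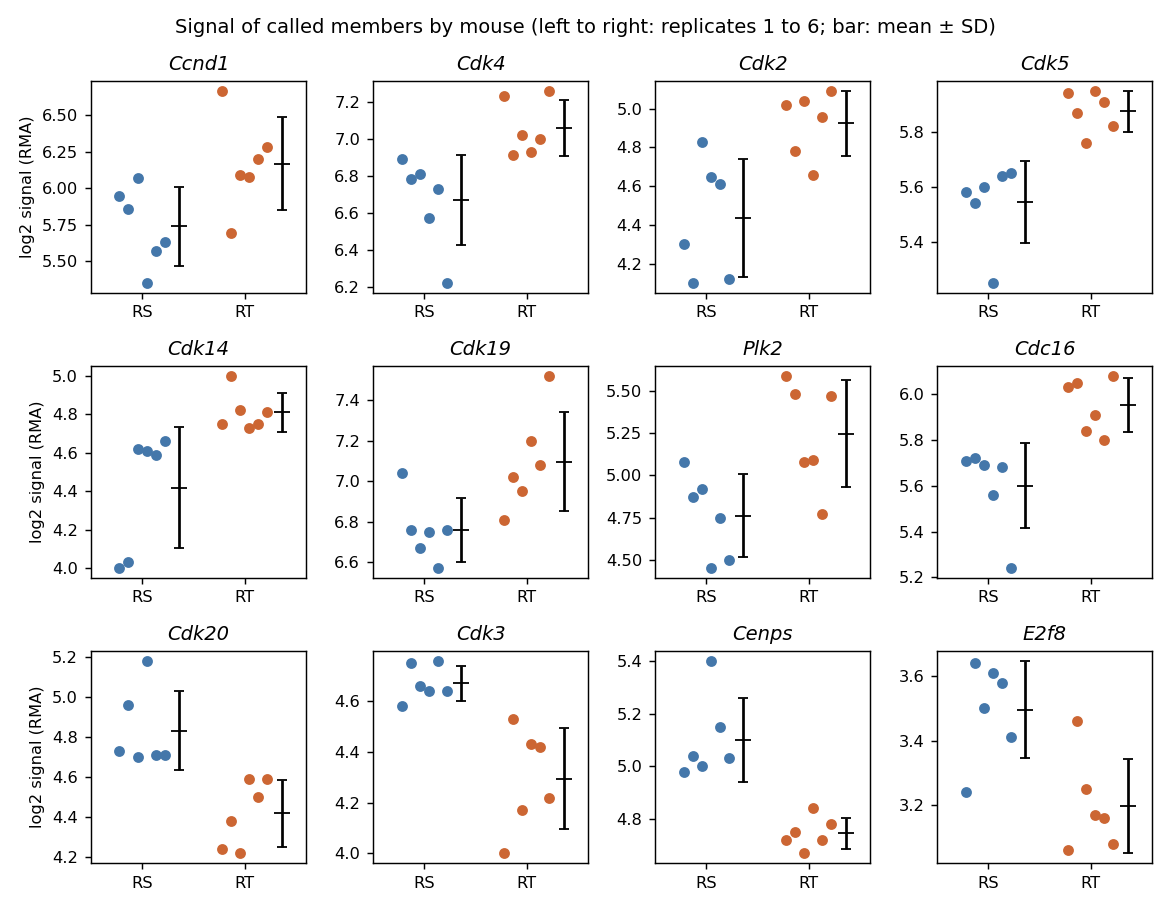
Log2 signal of 12 called genes in each mouse, with RS in blue and RT in orange, and a bar for the mean and SD of each group (n = 6). Cdk4, Cdk5, Cdk14 and Cdc16 have every RT mouse above every RS mouse, and Cdk20, Cdk3 and Cenps have every RT mouse below; scales differ between genes and do not start at 0.

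Among the kinases that are called Cdk for their sequence, 8 genes were grouped as having other roles, and 2 were higher and 1 lower. Cdk5, known from neurons and from differentiating muscle cells, was higher by 0.33 (SE 0.08, adjusted p = 0.0159). It ran from 5.25 to 5.65 in RS, with a median of 5.59, and from 5.76 to 5.95 in RT, with a median of 5.89. The groups did not overlap, RS-4 lay far below the other RS mice, and without RS-4 and RS-6 the change was 0.29 (adjusted p = 0.0327). The call ended with the array SD as a covariate (change 0.28, adjusted p = 0.119).

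Cdk14, a kinase that pairs with cyclin Y and takes part in Wnt signaling, was higher by 0.39 (SE 0.12, adjusted p = 0.0401). It ran from 4.00 to 4.66 in RS and from 4.73 to 5.00 in RT, and the groups did not overlap. Among RS mice 4 lay at 4.59 to 4.66, just under the lowest RT mouse, and RS-1 and RS-2 lay at 4.00 and 4.03. The change was 0.50 (adjusted p = 0.0322) without RS-4 and RS-6, and the adjusted p was 0.0522 with the array SD as a covariate.

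Cdk20, which is known for a role at the primary cilium, fell by 0.41 (SE 0.10, adjusted p = 0.0166). It ran from 4.70 to 5.18 in RS and from 4.22 to 4.59 in RT, with no overlap. The call was kept with RS-4 and RS-6 left out (adjusted p = 0.0466) and was lost with the array SD as a covariate (change -0.32, adjusted p = 0.158).

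Of 6 genes for transcription kinases, 1 was higher. Cdk19, a kinase of the Mediator complex, was higher by 0.34 (SE 0.11, adjusted p = 0.05), with RS mice at 6.57 to 7.04 and RT mice at 6.81 to 7.52. The call ended under cyclic loess and when RS-5 or RT-6 alone was left out (adjusted p of 0.102 and 0.108). For Cdk19 it also ended without RS-4 and RS-6 together (adjusted p = 0.13) and with the array SD as a covariate (adjusted p = 0.326). Its paralog Cdk8 gave 0.07 (adjusted p = 0.49). Cdk7, which phosphorylates RNA polymerase II and activates the cell cycle kinases, had 2 transcript clusters, of which the brighter gave 0.14 (adjusted p = 0.362) and was not called, and the dimmer gave 0.37 (SE 0.12, adjusted p = 0.0563). The difference between the clusters was not tested. The call of the dimmer ended without RS-4 and RS-6 (change 0.20, adjusted p = 0.158) and when RT-1 or RT-2 was left out (adjusted p of 0.107 and 0.109).

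The proliferation core, the list of genes that mark dividing cells, had 33 of its 34 genes measured, each read here from its brightest transcript cluster. The list was chosen with earlier results of these data known, and its counts depend on that choice. Among the centromere genes it leaves out, Cenpl was called higher and Cenps lower. No core gene was higher in RT and 2 were lower, E2f8 and Mcm10, against 13.9% higher and 10.7% lower when all genes were read from their brightest transcript cluster. The change was below 0 in 26 core genes and above 0 in 7, with a median of -0.09. Of the 33, 24 lay below the median signal of the array and 9 above it. The median change over all transcript clusters was -0.08 below that signal and 0.08 above it. Over all genes, each read from its brightest transcript cluster, the median was 0.0083. The core median went to -0.05 when RS-4 and RS-6 were dropped, to -0.02 with arrays centered, to -0.01 under cyclic loess and to -0.0037 with the array SD as a covariate.

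For each core gene the interval of the limma fit gives the uncertainty of the change in array signal estimated from these 12 mice. It holds gene by gene and not for the list jointly. Of the 33 genes 24 lay below the median signal of the array, Mki67 and Cdk1 among them. How far a change in RNA shows at such a signal was not tested. The highest upper bound of the 95% intervals was 0.41 (Mcm4) and the lowest lower bound was -0.66 (Ccne2), and 28 of the 33 intervals included 0. Mki67, the antigen used to count dividing cells, ran from 3.23 to 3.93 in RS and from 3.27 to 3.88 in RT. Its change was 0.04 (95% interval -0.24 to 0.31), and the groups lay over each other. Cdk1, the kinase of mitosis, ran from 3.24 to 3.67 in RS and from 3.12 to 3.64 in RT, with a change of -0.13 (95% interval -0.36 to 0.10).

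Top2a, the topoisomerase that untangles replicated DNA, had 2 transcript clusters, of which 1 was called. The brighter ran from 2.59 to 3.07 in RS and from 2.68 to 3.09 in RT (change 0.07, adjusted p = 0.65). The dimmer was among the 2 dimmest of the 96, the other being Ccnb3, and fell by 0.32 (SE 0.10, adjusted p = 0.0359), with RS at 1.67 to 2.16 and RT at 1.31 to 1.74. That call ended with RS-4 and RS-6 left out (change -0.24, adjusted p = 0.118) and with the array SD as a covariate (adjusted p = 0.279).

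The helicase genes Mcm2 to Mcm7 gave changes between -0.10 (Mcm7) and 0.20 (Mcm6), with adjusted p from 0.18 to 0.853. Mcm2 gave -0.03, Mcm3 0.04, Mcm4 0.19 and Mcm5 -0.09. Without RS-1, the highest RS mouse for Mcm4, that gene was called higher (change 0.27, adjusted p = 0.0395). In Mcm6 the RS mice ran from 3.70 to 4.25 and the RT mice from 4.03 to 4.36, and it was called higher under cyclic loess (change 0.31, adjusted p = 0.0549). The only licensing or helicase gene of 12 that was called was Mcm10, which starts the unwinding of origins and fell by 0.25 (SE 0.09, adjusted p = 0.0703). Its RS mice ran from 4.14 to 4.56 and its RT mice from 3.80 to 4.21, with 4 RT mice below every RS mouse. The call was lost under quantile normalization, median centering and cyclic loess, and when any 1 of RS-5, RS-6 and RT-1 to RT-4 was left out (adjusted p from 0.103 to 0.151). It was also lost without RS-4 and RS-6 together (adjusted p = 0.152) and with the array SD as a covariate (adjusted p = 0.302).

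Of the cyclins of S phase and mitosis, Ccna1 gave -0.20 (adjusted p = 0.161), Ccna2 -0.02 (adjusted p = 0.91), Ccnb2 -0.14 (adjusted p = 0.337) and Ccnb3 0.08 (adjusted p = 0.664). No cyclin of these phases was called.

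Of 8 E2F genes 1 was called. E2f8, an atypical E2F that represses the targets of the others, fell by 0.30 (SE 0.09, adjusted p = 0.0375). It ran from 3.24 to 3.64 in RS, with a median of 3.54, and from 3.06 to 3.46 in RT, with a median of 3.17. The lowest RS mouse still lay above 4 RT mice. With RS-4 and RS-6 left out the call was kept (adjusted p = 0.0972), and under cyclic loess (adjusted p = 0.184) and with the array SD as a covariate (adjusted p = 0.246) it was lost.

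**Figure D3:**
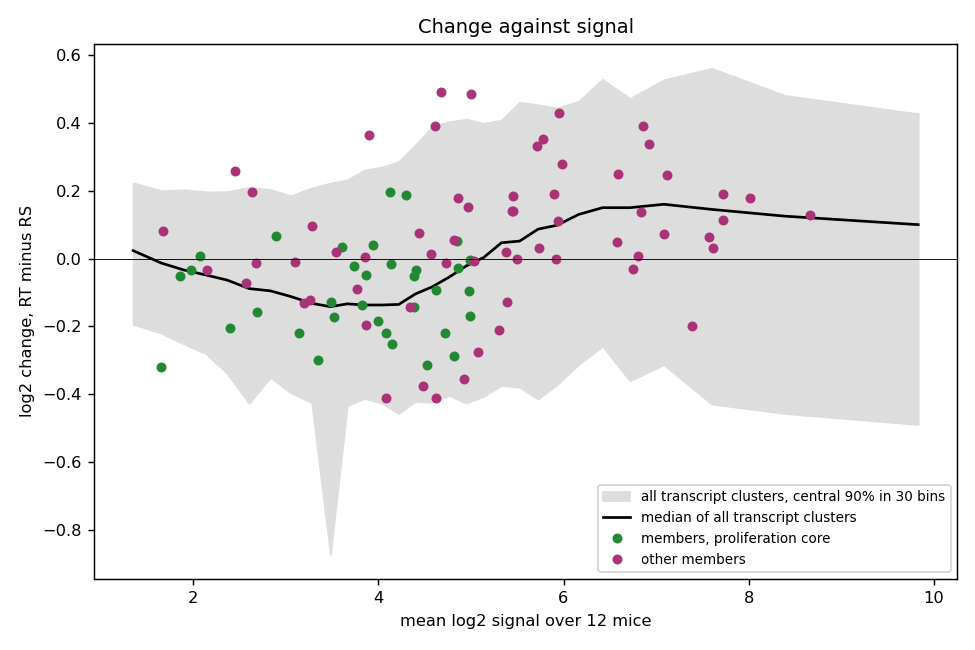
Log2 change of RT minus RS against the mean log2 signal over 12 mice. Green points are the transcript clusters of proliferation core genes, purple points the other members, the black line the median of all 28944 transcript clusters in 30 bins of signal and the gray band their central 90%. The line lies below 0 at low signal, where most green points are, and above 0 at high signal.

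Among 7 Aurora and Polo-like kinases 1 was higher and 1 lower. Plk2, which stress and growth signals induce and which is not bound to mitosis, was higher by 0.49 (SE 0.14, adjusted p = 0.0318). It ran from 4.45 to 5.08 in RS, with a median of 4.81, and from 4.77 to 5.59 in RT, with a median of 5.28. The groups overlapped, 4 RT mice lay above every RS mouse, and the call ended with RS-4 and RS-6 left out (change 0.34, adjusted p = 0.164) and with the array SD as a covariate (change 0.20, adjusted p = 0.403). Plk3, its stress-responsive relative, gave -0.41 (adjusted p = 0.117), with RS at 3.91 to 4.95 and RT at 3.44 to 4.22. Plk1 and Aurkb, kinases of mitosis, gave -0.17 (adjusted p = 0.354) and -0.02 (adjusted p = 0.932).

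Aurkc, the Aurora kinase of germ cells, had 4 transcript clusters. The brightest fell by 0.28 (SE 0.11, adjusted p = 0.0887), with RS at 4.81 to 5.57 and RT at 4.79 to 5.14. The other 3 changed by -0.01, -0.01 and 0.0033 and none was called; the difference between the clusters was not tested. Leaving out any 1 of 9 arrays ended the call (adjusted p from 0.103 to 0.184). So did leaving out RS-4 and RS-6 together (adjusted p = 0.29) and taking the array SD as a covariate (adjusted p = 0.595).

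The ubiquitin ligase that ends mitosis, the anaphase-promoting complex, also serves cells that do not divide. Among 6 genes grouped as parts of ubiquitin ligases, 2 subunits of this complex were the only calls. Cdc16 was higher by 0.35 (SE 0.09, adjusted p = 0.0220), with RS at 5.24 to 5.72 and RT at 5.80 to 6.08 and no overlap. It was kept without RS-4 and RS-6 (change 0.25, adjusted p = 0.0749) and lost with the array SD as a covariate (change 0.21, adjusted p = 0.236). Cdc27 was higher by 0.25 (SE 0.09, adjusted p = 0.0683), with RS at 6.24 to 6.65 and RT at 6.61 to 6.94. Its call was lost when RS-4, RS-5, RS-6 or RT-6 alone was left out (adjusted p from 0.102 to 0.153). It was also lost under cyclic loess, without RS-4 and RS-6 together (adjusted p = 0.278) and with the array SD as a covariate (adjusted p = 0.56). Of the other subunits among these genes, Cdc23 gave 0.11 (adjusted p = 0.418) and Cdc26 gave -0.13 (adjusted p = 0.489). Cdc20, which activates the complex in mitosis, gave -0.05 (adjusted p = 0.722). Cdc34, a gene of the group outside this complex, gave -0.20 (adjusted p = 0.109) and was called lower under cyclic loess (change -0.34, adjusted p = 0.0138).

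Of 19 centromere genes 1 was higher and 1 lower. Cenps, a histone-fold protein of the centromere and of DNA repair, fell by 0.35 (SE 0.08, adjusted p = 0.0119). It ran from 4.98 to 5.40 in RS and from 4.67 to 4.84 in RT with no overlap. The call was kept when RS-4 and RS-6 were left out (adjusted p = 0.0286) but not with the array SD as a covariate (change -0.27, adjusted p = 0.115). Cenpl was higher by 0.26 (SE 0.09, adjusted p = 0.0658), with RS at 2.27 to 2.43 and RT at 2.33 to 2.86. Its call was lost when RS-5, RS-6 or any 1 of RT-3 to RT-5 was left out (adjusted p from 0.102 to 0.139). It was also lost without RS-4 and RS-6 together (change 0.27, adjusted p = 0.12) and with the array SD as a covariate (change 0.31, adjusted p = 0.131). Cenpf, a protein of the kinetochore in G2 and mitosis, was below every RS mouse in all 6 RT mice, yet its change of -0.22 was not called (adjusted p = 0.112). The histone of the centromere, Cenpa, gave 0.05 (adjusted p = 0.663).

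Values of RS and RT did not overlap in 8 of the 96 transcript clusters (8.33%) and in 5.79% of all transcript clusters. The 8 were Cdc16, Cdk14, Cdk4 and Cdk5, higher in RT, and Cdk20, Cdk3, Cenps and Cenpf, lower in RT. Groups without overlap always give an exact two-sided permutation p = 0.00216, the smallest that the 924 splits of 6 against 6 allow. For these 8 that p was thus fixed by their choice, is not adjusted, and adds nothing to the lack of overlap.

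The 2 members of highest signal have roles outside the cycle or in differentiated cells. Cdc42, a small GTPase of the cytoskeleton, gave 0.13 (adjusted p = 0.504), and Cdk16 gave 0.18 (adjusted p = 0.22). The 5 genes named Cdc that act outside the cycle, with Cdc42 among them, held no call.

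Summarised per mouse, as the mean of the genes' log2 signals after each gene was centered on its mean over the 12 mice, the core level ran from -0.06 to 0.22 in RS and from -0.09 to 0.03 in RT. RS-4 was highest at 0.22 and RS-6 next at 0.08, and these were the arrays of lowest SD. In RS-4 alone 10 of the 33 core genes had their highest value of the 12 mice. The level of Cdk2, Cdk4 and Ccnd1, genes picked because they were called higher, ran from -0.51 in RS-6 to 0.07 in RS and from -0.04 to 0.47 in RT. Of the 11 clusters called higher, 4 had their lowest value in RS-4 and 3 in RS-6. The fibroblast and matrix level ran from -0.87 to 0.15 in RS and from 0.13 to 0.51 in RT and the macrophage level from -0.56 to -0.06 and from 0.09 to 0.49. The satellite cell level ran from -0.07 to 0.07 in RS and from -0.07 to 0.10 in RT.

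**Figure D4:**
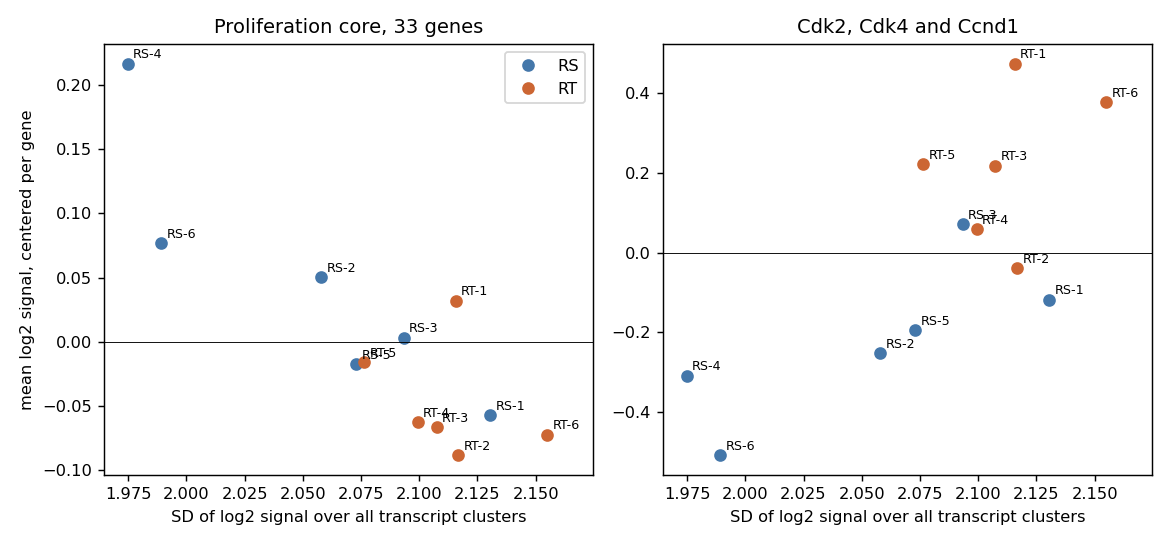
Level of the 33 core genes (left) and of Cdk2, Cdk4 and Ccnd1 (right) in each mouse, as the mean of log2 signals centered per gene, against the SD of log2 signal over all transcript clusters of the array. RS is blue and RT orange. RS-4 and RS-6, at 1.97 and 1.99, have the highest core levels and the lowest levels of the 3 genes.

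Other genes of the cycle, from lists of pathway genes outside the symbols above, gave 11 higher and 7 lower of 105 measured, with a median of -0.0033. Both shares lay below those over all genes, each read from its brightest transcript cluster, which were 13.9% higher and 10.7% lower. At the replication fork and in DNA synthesis 4 of 39 were higher and 1 lower. Pcna, the sliding clamp of the DNA polymerases, was higher by 0.37 (adjusted p = 0.0318), with RS at 6.07 to 6.76 and RT at 6.69 to 7.02. Orc6 and Orc3, subunits of the origin recognition complex, were higher by 0.33 (adjusted p = 0.0118) and 0.30 (adjusted p = 0.0726), and Cdt1, which loads the helicase, fell by 0.28 (adjusted p = 0.0547).

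In the spindle, checkpoint and cytokinesis list 1 of 36 was higher, the checkpoint gene Bub3 (0.33, adjusted p = 0.059), and 3 were lower. Incenp, the scaffold of Aurora B, fell by 0.41 (adjusted p = 0.0112), and the kinesin Kif2c and the checkpoint kinase Bub1b fell by 0.25 and 0.23. Among 12 pocket proteins and cell cycle transcription factors 4 were higher and 2 lower. Rb1, the retinoblastoma protein that Cdk4 and Cdk2 phosphorylate, was higher by 0.50 (adjusted p = 0.0158), with RS at 5.75 to 6.52 and RT at 6.41 to 6.76. Its relative Rbl1 was higher by 0.34 and Lin54 by 0.37. Mybl2 fell by 0.34 and Lin52 by 0.28.

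Of 7 inhibitors of cyclin-dependent kinases 1 was higher, Cdkn1c (0.21, adjusted p = 0.0978), and 1 lower, Cdkn2a (change -0.39, adjusted p = 0.0666). Chek2, a kinase of the DNA damage response, was the only call of 11 phosphatases and checkpoint kinases (0.33, adjusted p = 0.0496). Without RS-4 and RS-6 the 105 genes gave 4 higher (Orc6, Rb1, Tfdp1 and Chek2) and 2 lower (Incenp and Lin52), and the other calls were lost. Pcna went to 0.23 (adjusted p = 0.133), Bub3 to 0.17 (adjusted p = 0.269) and Cdkn2a to -0.21 (adjusted p = 0.234). With the array SD as a covariate 2 were higher (Orc6 and Tyms) and 0 lower, and Pcna went to 0.16, Bub3 to 0.08, Rb1 to 0.24 and Cdkn2a to -0.12.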

How the data were processed

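Muscle RNA (250 ng of total RNA per mouse) of 12 mice was hybridised to Affymetrix Mouse Gene 1.0 ST arrays, 1 per mouse. The deposited values were log2 signals that the authors made by robust multi-array averaging (RMA); the methods name RMA in one place and SST-RMA in another, and the genome build is not given in the sources used here. All 28944 transcript clusters were fitted with limma 3.58.1 in R 4.3.3 (RT minus RS, no covariate, Benjamini-Hochberg over the whole array), and a call took the methods' thresholds, an unadjusted p under 0.05 with an adjusted p under 0.1. The fit was tested on simulated data. Array medians ran from 4.40 to 4.63, and the number of arrays limits the precision. The platform table gave 21789 transcript clusters 1 symbol, 1621 several and 5534 none; all 96 members matched the gene table. A gene was read from its brightest transcript cluster. Signals depend on the probes, so an order of genes by signal is one of probe signal and not of RNA amount. Named genes were every called member, the 2 highest and 2 lowest by signal, Mki67, Top2a, Mcm2 to Mcm7 and the cyclins. Also named were Cdk1, Cdk2, Cdk4, Cdk6, every called inhibitor and the 3 largest calls of each other list and direction. Further genes (Cdc20, Cdc23, Cdc26, Cdc34, Cdk8, Cenpa, Cenpf, Plk1, Plk3, Aurkb) were named after their values were seen. Members and lists were chosen with earlier results of these data known. The numbers of replicates did not pair the arrays (correlations of deviations from -0.24 to 0.11). Other normalizations, tests, filters, covariates and left-out arrays were tried as alternatives.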

Additional observations from a re-analysis of the deposited data

Results flagged for a closer look

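In 6 of 76 groups of 6 mice, over the 38 named transcript clusters, 1 mouse lay far from the others, by the size of its gap to the nearest value against the group's range; chance flags about 1 in 20 groups. In RS, the dimmer Top2a cluster was 2.16 in RS-6 (other RS mice 1.67 to 1.82), and Mcm10 was 4.56 in RS-6 (others 4.14 to 4.29). Cdc16 was 5.24 in RS-6 (others 5.56 to 5.72), and Cdk5 was 5.25 in RS-4 (others 5.54 to 5.65). Of these 4 the first 2 were high where the call was lower in RT, and the other 2 were low where the call was higher in RT. Mcm4 was 4.63 in RS-1 (others 4.04 to 4.22). In RT, Cdk14 was 5.00 in RT-2 (others 4.73 to 4.82). RS-4 and RS-6 are the arrays of lowest spread, and the part of that spread in these values was not tested.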

How the results depend on the processing

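Over the 38 named transcript clusters and their alternatives, 884 of 982 values stayed on their side of the threshold and 87 lost the call. Another 11 gained one (Mcm6 3 times, Ccnd2 and Ccne2 2 times each, Mcm4, Ccna1, Ccne1 and Cdk16). A direction was read only where a call was made, and 0 reversed. The sign of changes that were not called could turn, as in Mki67. Only the 18 called clusters could lose a call, and 2 of them kept it under every alternative. With the array SD as a covariate, 3 members were called (1 higher, 2 lower), 0 core genes and 2 other cell cycle genes; the 2 lower were Cdk3 and Cdk18 (change -0.33, adjusted p = 0.0681). Without RS-4 and RS-6 these counts were 8 (4 higher, 4 lower), 1 and 6. Centering arrays on their median gave 19 higher members, and 5883 higher transcript clusters over the array against 3445 without it. Quantile normalization and cyclic loess each left 1 core gene called, Mcm6, higher in RT, while E2f8 and Mcm10 were not called. At adjusted p under 0.05, 7 members were higher and 5 lower, beside 2092 higher and 2307 lower over the array. At that threshold 1 core gene and 9 other genes were called. With each array left out in turn, members called ran from 12 (without RS-5) to 28 (without RS-1), higher from 7 to 16 and lower from 5 to 12 (the same arrays left out), where the array as a whole gave 2622 higher and 3118 lower without RS-5 and 4573 and 4806 without RS-1, core genes from 1 (without RS-5, RS-6, RT-1, RT-2 or RT-3) to 5 (without RS-1; 4 without RS-3) and other genes from 10 (without RS-6 or RT-6; 11 without RS-4 or RT-1) to 26 (without RS-1). With the replicate number as a block, 18 members were called (10 higher, 8 lower), 3 core genes and 16 other genes. The array as a whole then gave 2873 higher and 3174 lower, and the replicate numbers are only labels here. The cause of these differences was not tested. The number of mice limits the precision, as the 95% intervals show.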
